A study of Bos taurus with 6 samples.

Results

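The thrombospondins are a family of secreted glycoproteins of the extracellular matrix, to which cartilage oligomeric matrix protein, encoded by COMP, also belongs. The genes described here are COMP, THBS1, THBS2, THBS3 and THBS4 together with POSTN, TNC, SPARC, FN1 and FBN1, which encode periostin, tenascin C, SPARC, fibronectin and fibrillin. The 10 genes were chosen by name, with their differences between the breeds already known, and were matched to the gene names in the files. Of these, 9 were found among the 18010 genes listed. THBS2 matched no name and was not analysed here. All 9 were among the 9781 genes tested, which had a mean FPKM (a transcript level corrected for transcript length and for the sequenced fragments of the library) of at least 1 in at least 1 breed. THBS3 passed this filter only through its mean in Luxi cattle, and POSTN only through its mean in Shandong black cattle.

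The longissimus dorsi, the long muscle of the back, was sampled from 3 Shandong black cattle and 3 Luxi cattle and its RNA was sequenced, with 1 library per animal. All animals were healthy and aged 18 months, and none carried a stated treatment or engineered allele. Luxi cattle is a local yellow breed, and Shandong black cattle is a composite breed with Luxi, Japanese black and Bohai black cattle in its ancestry. The animals of each breed came from a different company, so breed and source cannot be told apart.

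Matricellular proteins are secreted into the matrix but mainly adjust how cells attach to it, move in it and receive growth factors, rather than bearing load. In muscle they are made largely by fibroblasts and other cells of the connective tissue between the fibres and at the junction with tendon, and many of them are raised in injury and regeneration. THBS1 and THBS2 form trimers, whereas THBS3, THBS4 and COMP form pentamers that bind collagen, fibronectin and other matrix proteins. In whole muscle, fewer cells of a type and less RNA per cell cannot be told apart.

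The libraries rested on 14.1 to 14.6 gigabases of aligned sequence in the Shandong black animals and 17.5 to 17.99 gigabases in the Luxi animals. Muscle genes were abundant in every library, with a summed FPKM of 7 muscle identity markers, ACTA1 and CKM the highest, between 15750 and 66146, the lowest being that of Luxi replicate 1. XIST, the RNA that coats the inactive X chromosome of females, had FPKM of 10.7, 4.83 and 14.0 in the Shandong black animals and 0, 0 and 0.207 in the Luxi animals. The labels give no sex, and a difference of sex between the groups cannot be told apart from the breed. All fold changes below are Luxi over Shandong black on the scale log2(FPKM + 1), with the standard error (SE) of the fit across all genes, and they understate changes at low levels. A gene was past the criteria where its adjusted p was under 0.05 and its log2 fold change was 1 or more in either direction.

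COMP and POSTN were much lower in Luxi cattle than in Shandong black cattle, and THBS1 and THBS4 were lower on average. FN1 was higher in every Luxi animal, and so was THBS3 when transcripts outside the annotation were counted. SPARC was higher on average. TNC and FBN1 differed by little. Only COMP was past the criteria, 1 of 9 genes, where 2.57% of all genes tested were past them. By direction, 1 of the 9 was past the criteria and lower in Luxi cattle, as were 1.02% of all genes tested, and 0 of the 9 were past them and higher, as were 1.54%. A log2 fold change of 1 or more in either direction was found in 3 of the 9 genes and in 8.06% of all genes tested. Every Luxi animal was below every Shandong black animal in 2 of the 9 genes, COMP and POSTN, and in 9.13% of all genes tested. Every Luxi animal was above every Shandong black animal in 2 others, THBS3 and FN1, and in 20.0% of all genes tested, so that 4 of the 9 genes had no overlap of the breeds, beside 29.1% of all genes tested. Because the genes were chosen with this contrast in view, these counts and the fold changes of the 9 genes describe them and are no test.

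The median log2 fold change of the 9 genes was -0.26, beside 0.13 for all genes tested, and 6 were lower and 3 higher in Luxi cattle. The same numbers of genes were lower and higher with TPM, a second unit of level in the files, with size factors and with quantile normalization. Size factors and quantile normalization moved the median of all genes to 0.03 and 0.00, so the positive values below are best read against 0.13.

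**Figure D1:**
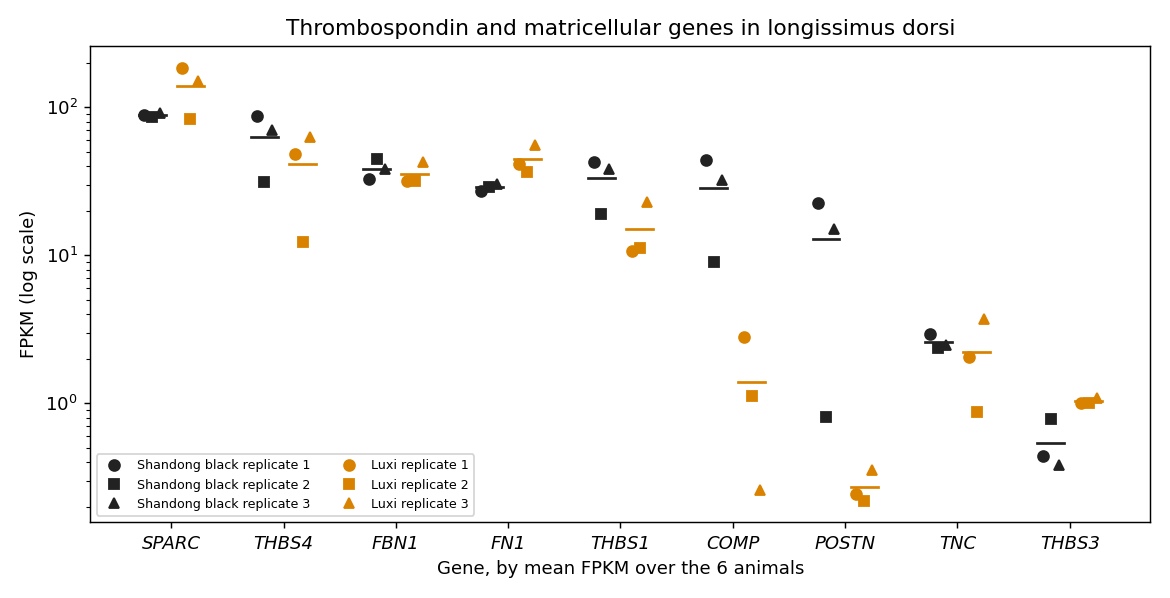
FPKM of the 9 genes in each animal, on a log scale, with genes ordered by their mean over the 6 animals. Points are animals, marked by replicate, and short lines are breed means. COMP spans 0.259 to 44.3 and POSTN 0.220 to 22.7, whereas FBN1 spans 31.7 to 44.9.

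COMP lies on the plus strand of chromosome 7 of ARS-UCD1.2, from 4422721 to 4430541. It encodes the thrombospondin best known from cartilage, tendon and ligament, where it helps to organise collagen fibrils. Its FPKM was 44.3, 9.06 and 32.4 in Shandong black replicates 1, 2 and 3 and 2.83, 1.11 and 0.259 in the Luxi replicates. No Luxi animal reached the lowest Shandong black animal, and replicate 2 was well below the other Shandong black animals. The means were 28.6 ± 17.9 (SD, n = 3) and 1.40 ± 1.31 (SD, n = 3), a 20.4-fold difference of the means, and the log2 fold change was -3.52 (SE 0.62). Without Luxi replicate 1 the means differed 41.7-fold, and without Shandong black replicate 2 the log2 fold change was -4.17.

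The sequence behind COMP also differed in extent. In the 3 Shandong black animals and in Luxi replicate 1, all of its 2461 exonic bases were covered by its transcripts, at a mean depth of 625, 132, 469 and 49.5. In Luxi replicates 2 and 3 the annotated transcript was not listed, and short assembled transcripts covered 32.1% and 10.7% of its exonic bases, at a mean depth of 2.19 and 0.488. The FPKM of these fragments thus refers to part of the gene. COMP was not past the criteria in the fits without Shandong black replicate 1 or 3 or without Luxi replicate 2 or 3, nor with no filter on FPKM.

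THBS4 was the most abundant thrombospondin. The gene lies on the plus strand of chromosome 10 from 11006321 to 11060136, and its pentameric protein is found at the muscle surface and in tendon, where it takes part in the attachment of fibres to the matrix. Its FPKM was 88.1, 31.2 and 70.6 in the Shandong black animals and 48.1, 12.3 and 63.3 in the Luxi animals. The breeds overlapped, and replicate 2 was the lowest animal of both. The log2 fold change was -0.76 (SE 0.65), and it was -0.07 without Luxi replicate 2.

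Part of the THBS4 signal in Shandong black replicates 1 and 3 came from an assembled transcript that began 116429 bases before the annotated start, at position 10889892, and was spliced to the THBS4 exons. Its FPKM was 15.2 in replicate 1 and 7.76 in replicate 3, or 17.3% and 11.0% of the gene. It was not listed in the other 4 animals. Without it, the FPKM of THBS4 was 72.9 and 62.8 in these animals, and the breeds still overlapped. In replicate 3 other assembled transcripts held a further part of THBS4. Annotated transcripts held 82.7% of the gene in replicate 1, 50.9% in replicate 3 and 100% in the other 4 animals. With annotated transcripts only, the log2 fold change was -0.36.

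THBS1 lies on the plus strand of chromosome 10 from 35209548 to 35225356. Its trimeric protein binds the receptors CD36 and CD47 and can activate latent transforming growth factor beta (TGF-beta). Its FPKM was 43.0, 18.9 and 38.0 in the Shandong black animals and 10.8, 11.3 and 23.0 in the Luxi animals. Luxi replicate 3 was above Shandong black replicate 2, and the other Luxi animals were below all Shandong black animals. The means were 33.3 ± 12.7 and 15.0 ± 6.93 (SD, n = 3 each), and the log2 fold change was -1.10 (SE 0.40), not past the criteria. Almost all of it came from 1 of its 2 listed transcripts, with 36.2 of 38.0 FPKM in Shandong black replicate 3 as the lowest share among the 6 animals.

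THBS3 had the lowest mean level of the 9 genes over the 6 animals, although POSTN was below it in every Luxi animal. It lies on the plus strand of chromosome 3 from 15415376 to 15425519 and encodes a pentameric thrombospondin known from developing bone and cartilage. Its FPKM was 0.439, 0.782 and 0.386 in the Shandong black animals and 1.01, 1.00 and 1.09 in the Luxi animals. All Luxi animals were above all Shandong black animals, and the Luxi values lay close together. The log2 fold change was 0.41 (SE 0.18) on the scale with 1 added to a level near 1, whereas the mean of Luxi cattle was 1.93 times that of Shandong black cattle. Annotated transcripts held 71.9% and 80.7% of THBS3 in Luxi replicates 1 and 2 and 100% in the other animals. On the annotated transcript alone, the Luxi animals had 0.725, 0.809 and 1.09 FPKM. Luxi replicate 1 was then below Shandong black replicate 2, so the breeds overlapped. With annotated transcripts only, the log2 fold change was 0.29.

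POSTN lies on the plus strand of chromosome 12 from 24219116 to 24254425. Periostin binds collagen and tenascin C and is made by fibroblasts of tissues under load or repair. Its FPKM was 22.7, 0.806 and 15.0 in the Shandong black animals and 0.244, 0.220 and 0.356 in the Luxi animals. In Luxi replicate 2 no annotated transcript was listed. The value there came from assembled sequence over 7.44% of the exonic bases of POSTN, at a mean depth of 0.288. Shandong black replicate 2 resembled the Luxi animals more than it did its own breed, with the mean of the other Shandong black animals 23.4 times its value. The means were 12.8 ± 11.1 and 0.273 ± 0.0723 (SD, n = 3 each), and the log2 fold change was -2.79 (SE 0.86), not past the criteria. Without Shandong black replicate 2 it was -3.94 and past the criteria, the value resting on the animals that differ most.

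The annotated POSTN transcripts differ in 3 exons near the end of the gene, exons 17, 18 and 21 of 23, of 81, 90 and 84 bases. Exon 17 was in 45.6% and 55.5% of the POSTN FPKM of annotated transcripts in Shandong black replicates 1 and 3, exon 18 in 15.7% and 23.4%, and exon 21 in 92.6% and 76.6%. In these animals exon 21 was included most and exon 18 least. Annotated transcripts held 76.2% and 82.7% of POSTN there. With assembled transcripts added, the shares were 58.6% and 63.2% for exon 17 and 11.9% and 27.0% for exon 18. Exon 21 then had 70.5% and 68.6%, so the order stayed but exons 21 and 17 were closer. The other 4 animals had under 1 FPKM of POSTN, so the breeds were not compared.

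TNC lies on the minus strand of chromosome 8 from 104208978 to 104311440. Tenascin C is a large anti-adhesive glycoprotein of tendon and of regenerating muscle. Its FPKM was 2.95, 2.37 and 2.49 in the Shandong black animals and 2.05, 0.880 and 3.70 in the Luxi animals. The Luxi animals lay on both sides of the Shandong black animals. The log2 fold change of -0.26 (SE 0.32) turned to 0.075 without Luxi replicate 2 and to 0.58 with annotated transcripts only. These carried 14.0 to 28.3% of TNC in the Shandong black animals and Luxi replicate 1, 65.0% in Luxi replicate 2 and 100% in Luxi replicate 3.

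In Luxi replicate 3, where annotated transcripts held all of TNC, its 8 alternative exons of 273 bases each could be read at 3.70 FPKM. Exons of this kind encode the fibronectin type III repeats that lengthen the protein. Inclusion ran from 17.0% for exon 16 to 90.7% for exon 18, with 76.0% for exons 12, 14 and 15. The annotated transcripts spanning these exons had 0.412 to 0.584 FPKM in the other 5 animals, under the minimum of 1 set for a comparison. With assembled transcripts added, exon 18 was in 17.4, 22.1 and 21.5% in the Shandong black animals and in 26.7% in Luxi replicate 1. Exon 14 was in 0, 0 and 12.6% and in 10.4%. All 8 exons were included less in these animals than in Luxi replicate 3, whose pattern is that of a single animal. Luxi replicate 2 still had only 0.572 FPKM.

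SPARC was the most abundant of the 9 genes and was above the next gene, THBS4, in all 6 animals. It lies on the minus strand of chromosome 7 from 62874464 to 62897210, and its protein binds collagen, takes part in fibril assembly and weakens cell adhesion. The FPKM was 88.6, 86.6 and 91.6 in the Shandong black animals and 186, 83.0 and 151 in the Luxi animals. The Shandong black animals were nearly equal, and Luxi replicate 2 was below them while the other Luxi animals were well above. The log2 fold change was 0.57 (SE 0.35), and it was 0.43 with size factors.

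FN1 lies on the minus strand of chromosome 2 from 103361560 to 103430878. Fibronectin is the multidomain protein to which integrins attach cells, and fibrils of it form the first matrix of healing tissue. Its FPKM was 27.4, 28.8 and 30.6 in the Shandong black animals and 41.2, 36.5 and 55.7 in the Luxi animals. All Luxi animals were above all Shandong black animals. The means were 28.9 ± 1.57 and 44.5 ± 10.02 (SD, n = 3 each), and the log2 fold change was 0.58 (SE 0.24), not past the criteria and 0.45 with size factors.

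FBN1, the gene of the main microfibril protein, varied least between the breeds. It lies on the plus strand of chromosome 10 from 61654541 to 61919167, and microfibrils scaffold elastic fibres and hold latent TGF-beta. Its FPKM was 32.6, 44.9 and 38.3 in the Shandong black animals and 31.8, 31.7 and 42.6 in the Luxi animals. The breeds overlapped, and the log2 fold change was -0.13 (SE 0.24).

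**Figure D2:**
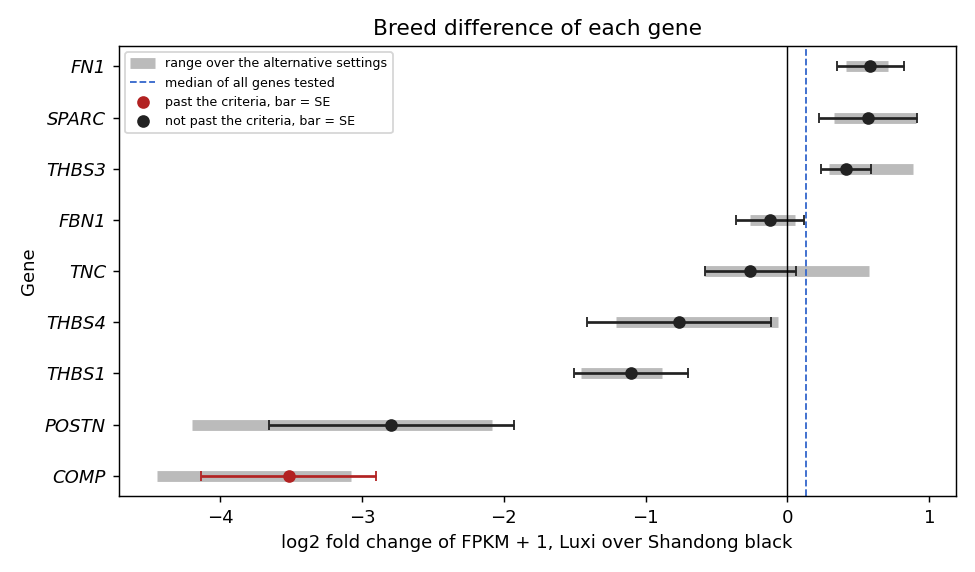
Log2 fold change of FPKM + 1, Luxi over Shandong black, for the 9 genes. Points with bars are the fitted value and its SE, grey bars span the alternative settings, and the dashed line is the median of all genes tested at 0.13. COMP, from -4.45 to -3.08, and POSTN, from -4.20 to -2.08, stay far below 0, and TNC spans 0.

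The order of the mean levels over the 6 animals was SPARC, THBS4, FBN1, FN1, THBS1, COMP, POSTN, TNC and THBS3. The ranges of every pair of neighbours in this order overlapped. SPARC was above THBS4 in 6 of 6 animals, THBS1 above COMP in 5 and TNC above THBS3 in 5, whereas FBN1 was above FN1 in 3 and POSTN above TNC in 2. Replicate 2 was the lowest Shandong black animal in 6 of the 9 genes, and replicate 2 was the lowest Luxi animal in 7 of the 9. The same counts were not made over all genes tested. With both replicate 2 animals left out, an alternative added after the values were seen, COMP (-4.15) was not past the criteria and POSTN (-3.91) was. In that fit 7 of the 9781 genes tested were past the criteria, beside 251 with all animals. THBS1 then had a log2 fold change of -1.30, TNC of 0.028 and FBN1 of 0.056.

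The position of reads along the transcripts was not used to choose the genes. The mean depth over the last 25% of the exonic bases, divided by that over the first 25%, was 1.28 to 2.23 for THBS4 and 1.87 to 2.78 for TNC, above 1 in every animal. It was 0.744 to 0.994 for FN1, 0.573 to 0.838 for FBN1 and 0.492 to 0.731 for SPARC, below 1 in every animal. Luxi replicate 1 had the highest ratio in THBS4, TNC and, narrowly, FN1 (0.994 against 0.985 in Shandong black replicate 1). In FBN1 and SPARC the highest was that of Shandong black replicate 1, at 0.838 and 0.731. Luxi replicate 1 alone had a ratio above 1 in THBS1, at 1.12 against 0.566 to 0.713 in the others. Its COMP ratio was 1.81 against 0.573 to 0.671 in the Shandong black animals. The part of this difference in the gene levels was not tested.

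Fibronectin has alternative exons that its level does not determine. The extra domains A and B, known from wounds, fetal tissue and growing vessels, are encoded by single exons that are skipped in the plasma form. In the annotated bovine transcripts, exon 33 of 46, of 270 bases, and exon 25, of 273 bases, were the 2 exons included in some and skipped in others. Exon 33 was included in 1.69, 5.03 and 0.156% of FN1 FPKM in the Shandong black animals and in 0.209, 0.00450 and 1.49% in the Luxi animals. Exon 25 was included in 0.00520, 8.13 and 0.363% and in 0.292, 0.00390 and 0.245%. Nearly all FN1 in these muscles thus lacked both exons, with the highest share of each in Shandong black replicate 2. The breeds overlapped for both, with exact two-sided permutation p = 0.3 for exon 33 and 0.4 for exon 25 (adjusted p = 0.4 for each), where 3 against 3 animals cannot give less than 0.1.

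The variable region of fibronectin showed a larger spread. One exon, whose last base is at position 103372128 of chromosome 2, was annotated in 3 lengths that differ at its first base, namely 107, 392 and 467 bases. The 107-base form held 35.9, 32.1 and 32.7% of FN1 FPKM in the Shandong black animals and 2.21, 26.1 and 19.5% in the Luxi animals, lower in every Luxi animal. The 467-base form held 1.69, 25.1 and 11.5% in the Shandong black animals and 45.0, 27.8 and 41.0% in the Luxi animals, higher in every Luxi animal. The 392-base form held 39.5 to 62.4% in all animals, and the breeds overlapped.

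The mean share of the 467-base form was 12.8 ± 11.8% over the Shandong black animals and 38.0 ± 8.99% over the Luxi animals (SD, n = 3 each), a difference of 25.2 percentage points. The exact two-sided permutation p was 0.1 for the 107-base and the 467-base form, the smallest that 3 against 3 animals allow, and 0.4 for the 392-base form, with adjusted p of 0.15, 0.15 and 0.4 over the 3 forms. This comparison was chosen after the transcript structures and values were seen. The transcripts that carry the 3 forms also differ at their 5′ ends, so the shares cannot be assigned to this exon alone.

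**Figure D3:**
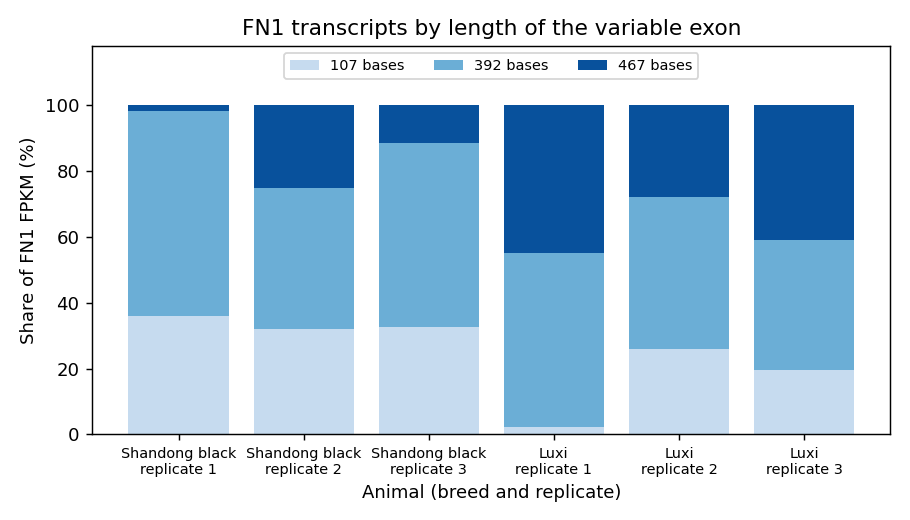
Share of FN1 FPKM (%) carried by annotated transcripts with each length of the variable exon, by animal. Bars are stacked to 100%. The 467-base form takes 27.8 to 45.0% in the Luxi animals and 1.69 to 25.1% in the Shandong black animals.

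The genes whose levels followed these most closely over the 6 animals were also listed, by Pearson's r of log2(FPKM + 1) as a description. For COMP they were UCHL1 (r = 0.995), FBLN7 (0.993) and CILP2 (0.993), for THBS4 AEBP2 (0.994), ST8SIA5 and SH2B3, for FN1 NPPC (0.995), LOC112443484 and ATP5ME, and for SPARC RGS3 (0.992), ACTN4 and CMIP. All points share the libraries and the 2 breeds, so genes that differ between the breeds in the same direction tend to have a high r. NPPC and LOC112443484 passed the filter only through Luxi cattle, with mean FPKM of 1.03 and 1.02 there and 0.0303 and 0.511 in Shandong black cattle. FBLN7 and CILP2 passed it only through Shandong black cattle. FBLN7 encodes a fibulin, and CILP2 a cartilage intermediate layer protein. The FPKM of FBLN7 was 5.13, 1.76 and 3.95 in the Shandong black animals and 0.633, 0 and 0 in the Luxi animals, the order of COMP in Shandong black cattle.

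Related genes were taken from lists named for their function, each read beside the median of 0.13 and the 2.57% called over all genes tested. Of 12 other matricellular genes tested, none was past the criteria (limma, 2 with an unadjusted p under 0.05), and their median was 0.39. The highest were SPARCL1, a relative of SPARC (11.99 to 16.7 FPKM in the Shandong black animals, 13.5 to 64.2 in the Luxi animals), and CYR61, an early-response matricellular gene (47.5 to 72.0 and 28.6 to 63.1). Of 15 genes of elastic fibres and microfibrils, 10 were lower and 5 higher in Luxi cattle, and the median was -0.35. Only FBLN7 was past the criteria, and it was lower (log2 fold change -1.89, limma adjusted p = 0.0387). MFAP5 and FBLN1, the highest of the list, overlapped between the breeds.

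None of 15 receptors and partners of these proteins was past the criteria (limma, 3 with an unadjusted p under 0.05, median 0.17), CALR and SDC4 being the highest, nor was any of 13 TGF-beta ligands and targets (4 with an unadjusted p under 0.05, median 0.05), TGFBR3 and SMAD4 being the highest. Of 8 ADAMTS genes, which encode proteases and related proteins with thrombospondin-type repeats, 2 were past the criteria and higher in Luxi cattle and none was past them and lower. Without regard to the criteria, 6 were higher and 2 lower (median 0.32). ADAMTS2, which trims the amino end of fibrillar procollagens, had 1.33, 1.69 and 1.55 FPKM in the Shandong black animals and 4.30, 3.45 and 4.95 in the Luxi animals (log2 fold change 1.05, limma adjusted p = 0.0317). ADAMTS9, a proteoglycan-cleaving protease, had 1.14, 0.437 and 0.807 FPKM against 6.82, 2.78 and 5.31 (log2 fold change 1.69, limma adjusted p = 0.0362). The breeds did not overlap in either gene. ADAMTS1 and ADAMTSL4, the highest of the list, were not past the criteria.

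Markers of the cells and tissues that make these proteins were also compared. Of 7 tendon and cartilage markers tested among 13 found, 6 were lower and 1 higher in Luxi cattle. Only PRG4, the gene of lubricin, was past the criteria. It was lower, with 2.55, 1.82 and 2.09 FPKM against 0.204, 0.0941 and 0.558 (log2 fold change -1.30, limma adjusted p = 0.0275). The list had a median of -0.69 and a summed FPKM of 33.3 to 53.9 in the Shandong black animals and 24.1 to 37.6 in the Luxi animals. FMOD and CILP, its highest genes, overlapped between the breeds, MATN2 was higher in every Luxi animal (log2 fold change 0.69, not past the criteria), and the tendon transcription factor genes SCX and MKX had at most 0.84 FPKM in any animal. The part of tendon in the COMP and POSTN values was not tested.

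Of 10 fibroblast markers tested, 7 were higher and 3 lower in Luxi cattle, and 1 was past the criteria. COL3A1, the gene of type III collagen, was higher in Luxi cattle, with 20.4 to 23.2 FPKM in the Shandong black animals and 145 to 194 in the Luxi animals (log2 fold change 2.94, limma adjusted p = 0.00733). DCN, the other most abundant marker, overlapped, and the log2 fold changes of the 3 lower markers, PI16, DPT and MFAP5, were -1.08, -0.39 and -0.06. The summed FPKM of the list was 171 to 228 in the Shandong black animals and 416 to 559 in the Luxi animals, and the median was 0.36. Without COL1A1 and COL3A1 the sums overlapped, at 133 to 170 and 162 to 244. In the breed with more COL1A1 and COL3A1 mRNA, COMP, POSTN and THBS1 were lower on average, and FN1 and SPARC were higher. That restates the breed difference, and a relation to collagen was not tested.

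Of 7 fat cell markers, ADIPOQ, PLIN1, FABP4 and CIDEC were past the criteria and lower in Luxi cattle, and none was past them and higher. LPL, the gene of lipoprotein lipase, was not past the criteria but was above in every Luxi animal, with 16.7 to 17.5 FPKM against 23.3 to 37.2. The median was -2.78, and the summed FPKM was 144 to 206 in the Shandong black animals and 47.6 to 71.7 in the Luxi animals. Of 7 slow fibre markers, TNNI1 was lower (log2 fold change -2.32, limma adjusted p = 0.0471), with a median of -1.11. MYL3 of the same list was higher in every Luxi animal, with 13.1 to 46.4 FPKM against 63.5 to 1180 (log2 fold change 3.33, not past the criteria). By contrast, none of 7 fast fibre markers was past the criteria (4 with an unadjusted p under 0.05), with a median of 2.12. MYL2 and TNNC1 were the highest slow fibre markers and MYL1 and MYLPF the highest fast fibre markers. Neither fat cells nor fibre types can be separated from the breed here, and their part in the COMP and POSTN values was not tested.

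Vessel markers set Luxi replicate 1 apart. Of 7 mural cell markers, NOTCH3 was higher in Luxi cattle (log2 fold change 1.08, limma adjusted p = 0.0412), with a median of 0.23, and RGS5 and ACTA2 were the highest. Their summed FPKM was 250.2 in Luxi replicate 1 and 40.3 to 73.2 in the other 5 animals. None of 6 endothelial markers was past the criteria (limma, 3 with an unadjusted p under 0.05, median 0.77), PECAM1 and CDH5 being the highest, with a summed FPKM of 79.4 in Luxi replicate 1 and 21.1 to 39.9 in the others. SPARC, which vessel cells also express, was highest in this animal, and the part of vessel cells in the SPARC values was not tested. None of 6 macrophage markers was past the criteria (2 with an unadjusted p under 0.05, median -0.46), C1QA and C1QB being the highest, and none of 7 muscle identity markers was (0 with an unadjusted p under 0.05, median -0.05).

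These 11 calls outside the 9 genes depended on single animals. PLIN1 was past the criteria in all 6 fits that left out 1 animal, COL3A1 in 4, PRG4, FABP4 and CIDEC in 3, FBLN7, ADAMTS9 and TNNI1 in 2, ADAMTS2 and ADIPOQ in 1 and NOTCH3 in 0. Without Shandong black replicate 1 or 3 only PLIN1 of the 11 was past the criteria, and 6, 10, 3 and 6 of them were without Shandong black replicate 2 and Luxi replicates 1, 2 and 3. ADAMTS2 and NOTCH3 were not past the criteria with size factors, quantile normalization or TPM, nor was ADAMTS9 with TPM. With both replicate 2 animals left out, 0 of the 11 were past the criteria, and so not PLIN1 either.

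**Figure D4:**
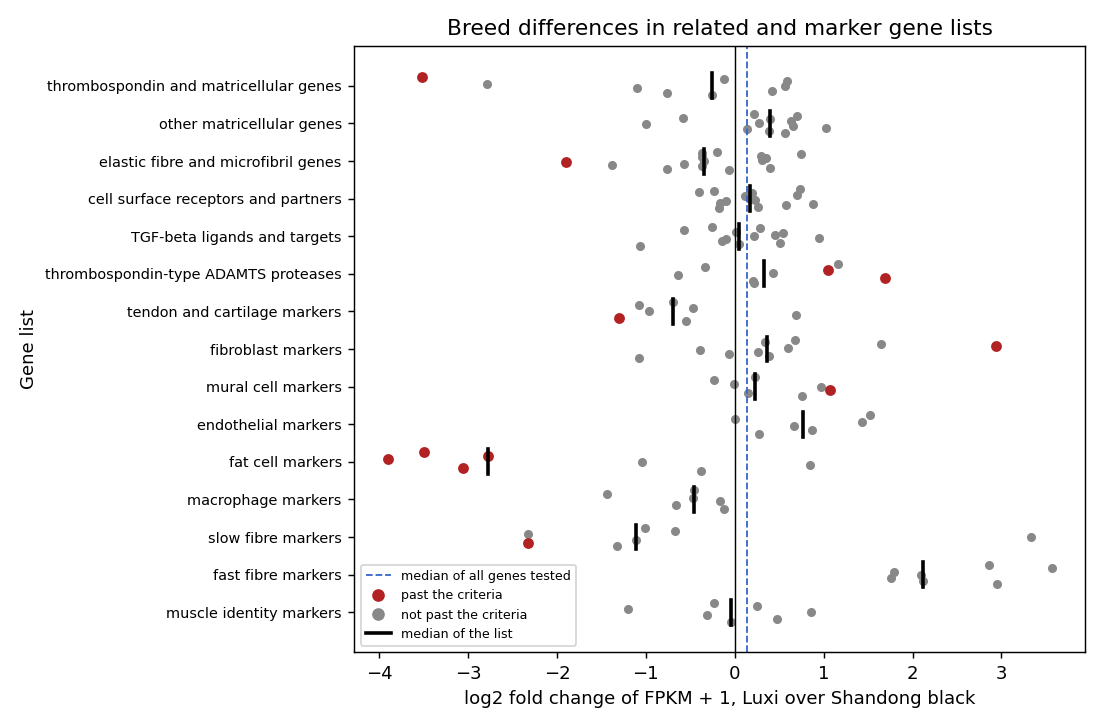
Log2 fold change of FPKM + 1, Luxi over Shandong black, for each tested gene of the 9 genes described and of the 14 related and marker lists. The row named thrombospondin and matricellular genes holds all 9, FN1 and FBN1 included. Red points are past the criteria, black lines are list medians and the dashed line is the median of all genes tested. Fat cell markers have a median of -2.78 and fast fibre markers of 2.12, and the other medians lie between -1.11 and 0.77.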

How the data were processed

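RNA was extracted with Trizol and libraries were made with an Illumina TruSeq kit, per the labels. The authors cleaned the reads with Fastp, mapped them with HISAT on the ARS-UCD1.2 assembly and ran StringTie on each library against the NCBI annotation. The file headers give StringTie 1.3.3b with the option for stranded reads. Whether the kit keeps the strand is not given in the sources used here, and the study names another StringTie version. The deposited coverage, FPKM and TPM of each transcript are StringTie estimates, with FPKM scaled to the library. As the analysis had no read counts, no count test was made, counting error is unknown and the 3 animals per breed limit precision. The study's test, Cuffdiff, needs alignments and was not run.

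The FPKM of a gene was summed over its annotated transcripts and over those assembled ones that lay on its strand and had 50% or more of their length on its exons. Assembled transcripts left out held 21.6 to 29.8% of the FPKM of a library. A transcript not listed in an animal counted as 0. Genes were tested with limma 3.58.1 in R 4.3.3 (lmFit, eBayes with trend) on log2(FPKM + 1) with Benjamini-Hochberg adjustment over 9781 genes. In simulated data for these genes, 66.5% of 200 genes given a true log2 difference of 1.5 were past the criteria, and 92% of 200 given one of 3, with 6 and 5 unchanged genes also past them. The simulation used independent normal noise, the same SD in both breeds and no floor at 0. In the data the median SD was 0.19 in Shandong black and 0.31 in Luxi cattle, so these shares may not hold there. Exon shares were computed from annotated transcripts spanning an exon, with at least 1 FPKM in every animal, and compared by exact two-sided permutation tests. Figures and tables used Python 3.11.15.

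The genes named are the 10 listed, the 3 genes most alike to COMP, THBS4, FN1 and SPARC, and from each list the genes past the criteria and the 2 most abundant, with exceptions chosen for their values (SCX, MKX, MATN2, PI16, DPT, COL1A1, LPL, MYL3 and XIST). The genes and lists were chosen with earlier results of these data known. Gene names are those of the files. Of these, 92.9% were found in the RefSeq gene table of a later assembly, the 9 genes described among them. List genes whose names did not match were not analysed here. Replicates are separate animals, and their numbers were given by the labels. Alternatives were a pseudocount of 0.1, no filter, a mean FPKM of at least 5, size factors, quantile normalization, TPM, annotated transcripts only, eBayes without trend, a replicate block and leaving out each animal. Leaving out both replicate 2 animals, adding assembled transcripts to the exon shares, and the FN1 forms were added after seeing the data.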

Additional observations from a re-analysis of the deposited data

Results flagged for a closer look

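Assembled transcripts on the strand opposite to SPARC and FN1 were listed in all 6 animals and entered no comparison. Opposite to SPARC, their summed FPKM had a median of 1.06 and ranged from 0.467 to 1.68, which is 0.527 to 1.71% of the level of SPARC in the same animal. Opposite to FN1, the median was 1.15 and the range 0.565 to 2.76, or 2.06 to 4.95% of FN1. The share of FN1 was higher in every Luxi animal (3.43, 3.78 and 4.95%) than in every Shandong black animal (2.06, 2.70 and 3.02%), a difference that was not tested. The Luxi libraries were also deeper, with 7, 6 and 10 such FN1 transcripts listed against 2, 4 and 3. The part of depth in the difference was not tested. The strand rests on the stranded option in the file headers, and whether the library kit keeps the strand is not given in the sources used here. If it does not, these transcripts cannot be told apart from reads of SPARC and FN1 themselves. No control samples exist for this signal, and none of the other 7 genes had such transcripts in every animal.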

How the results depend on the processing

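The number of genes past the criteria, 251 of all genes tested, 1 of the 9 and 11 of the related and marker genes, depended on the setting. It was 63, 0 and 2 with no filter on FPKM, 134, 1 and 6 with a mean FPKM of at least 5, 160, 1 and 6 with annotated transcripts only, and 135, 1 and 7 with a replicate block, and the related and marker genes were 7 with a pseudocount of 0.1. Without 1 animal, all genes past the criteria numbered 3 to 597, the 9 genes 0 to 2 (2 without Shandong black replicate 2, 0 without Shandong black replicate 1 or 3 or Luxi replicate 2 or 3), the related and marker genes 1 to 19 (1 without Shandong black replicate 1 or 3, 19, 4 and 6 without Luxi replicates 1, 2 and 3), and the alternative exons with breeds apart 0 to 1 (1 without Shandong black replicate 1 or 3). Over all genes they were 10 and 3 without Shandong black replicates 1 and 3, and 597, 46 and 89 without Luxi replicates 1, 2 and 3. Without both replicate 2 animals they were 7. Of the 251 genes, 151 were higher and 100 lower in Luxi cattle, but 113 and 139 with size factors and 124 and 164 with quantile normalization. The causes were not tested.

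COMP was past the criteria in 10 of its 16 alternatives and POSTN in 2, both without Shandong black replicate 2. TNC, -0.26, ranged from -0.59 to 0.075 without 1 animal (0.075 without Luxi replicate 2), and was 0.58 with annotated transcripts only and 0.028 without both replicate 2 animals. FBN1, -0.13, ranged from -0.26 to -0.01 without 1 animal and was 0.056 without both replicate 2 animals. The other 7 genes kept their direction in every setting run. TNC and THBS3 have no value with a mean FPKM of at least 5.

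The replicate numbers are those of the labels, and same-numbered animals are different animals. Their deviations from the breed means correlated by 0.084, 0.0869 and 0.0745, each animal being closest to its own number. Animals of unlike number correlated by -0.107 to 0.0083. The correlations were small and the labels state no pairing, so the main fit did not take the numbers as pairs. The replicate block was run as an alternative. Depth limits the size of COMP in Luxi replicates 2 and 3, at a mean of 2.19 and 0.488 over its bases, and of POSTN in the Luxi animals.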
